A study of Mus musculus with 92 samples.

Results

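Of the 36623 positions at which CTCF peaks were called in all 4 CTCF data sets of mouse GSC (germline stem cell cultures derived from spermatogonia), 15439 (42.2%) overlapped no STAG1, STAG2 or STAG3 peak of wild-type GSC. These STAG-negative sites were chosen by merging the 4 CTCF lists into 47107 intervals, keeping the intervals overlapped by all 4 lists, and removing every interval that shared at least 1 bp with a peak of any of the 8 wild-type GSC lists (3 for STAG3, 3 for STAG2 and 2 for STAG1). The other 21184 shared CTCF sites overlapped at least 1 of these peaks and are called STAG-positive sites. "Negative" and "positive" refer to the deposited GSC lists only, and an absent peak is not an absent protein.

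The study profiled cohesin, CTCF and chromatin marks by ChIP-seq along an in vitro path to the mouse male germline, and 30 deposited peak lists were used here. Of these, 18 lists came from wild-type cells before the GSC stage: embryonic stem cells (ESC, 2 STAG2 and 2 STAG1 lists), epiblast-like cells (EpiLC, 2 and 2), and primordial germ cell-like cells at the d2 stage (d2PGCLC, 3 and 2) and the d4c7 stage (d4c7PGCLC, 3 and 2). All of these were made from the BDF1-2-1 BVSC line, which carries Blimp1-mVenus and Stella-ECFP reporters, and the PGCLC were sorted as mVenus-positive. The GSC carried Acrosin-EGFP and beta-Actin-EGFP (AAG) and were sorted as AAG-positive, so cell type and reporter line cannot be told apart when GSC are set against the other cells. The 4 CTCF lists came from GSC that all lack STAG genes: Stag1Stag2dKO (Stag3-only), Stag1Stag3dKO (Stag2-only), Stag2Stag3dKO (Stag1-only) and Stag3KO. No CTCF list of wild-type GSC was analysed here, so the CTCF sites come from mutant GSC and the cohesin peaks from wild-type GSC. The CTCF lists held 39639 to 43877 peaks, the GSC STAG lists 9641 to 39681 and the 18 other STAG lists 14720 to 84904. Read depth was not given in the lists.

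CTCF is a zinc-finger protein that binds a long DNA motif and marks many boundaries of chromatin domains. Cohesin is a ring complex that extrudes chromatin loops, and it accumulates at CTCF because CTCF bound in one orientation halts the ring. Each ring holds a STAG subunit, which contacts CTCF and DNA: STAG1 and STAG2 are the mitotic forms, and STAG3 is known best from meiosis.

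The sequences below are promoters at such sites, where a sequence was at hand, and were printed only where they held the core of the CTCF motif. The searched core of the CTCF motif was 12 letters long and read CC, any 3 bases, AG, any 2 bases, GGC. It was searched on both strands. Promoters were the RefSeq windows of 250 bases before to 50 bases after each gene start (GRCm38.p6). The core was present in 44 of 97 promoters (45.4%) with the CTCF summit of a STAG-negative site and in 548 of 1191 promoters (46.0%) with that of a STAG-positive site. Of all 32817 promoters 8.61% held it, and of the promoters with no shared CTCF summit 7.08%. Negative and positive sites in promoters therefore held these letters at nearly the same rate. The core was present in 5 of 16 promoters whose negative site had a STAG peak in each of the 18 lists from ESC, EpiLC and PGCLC, and in 2 of 8 whose site had none. In both of these small classes most promoters thus lacked these letters. A match describes the letters only, and a summit was the mean of the summits of the 4 CTCF lists.

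Each line gives 60 bases read 5′ to 3′ along the gene, with the motif core in capitals. The first 5 are the promoters whose STAG-negative site held a STAG1 or STAG2 peak in all 18 lists of ESC, EpiLC and PGCLC and whose core lay before the gene start. They are Gm30284 (chr17:86445076-86445135 of GRCm38.p6, minus strand), Yjefn3 (chr8:69894038-69894097, minus strand), Myo1h (chr5:114356666-114356725, plus strand), Calhm5 (chr10:34096612-34096671, minus strand) and Gm36502 (chr5:116231935-116231994, plus strand).
Gm30284: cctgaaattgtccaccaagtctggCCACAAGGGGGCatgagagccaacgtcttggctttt
Yjefn3: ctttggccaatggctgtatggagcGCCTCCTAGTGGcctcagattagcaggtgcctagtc
Myo1h: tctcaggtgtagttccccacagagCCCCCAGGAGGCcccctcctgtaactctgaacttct
Calhm5: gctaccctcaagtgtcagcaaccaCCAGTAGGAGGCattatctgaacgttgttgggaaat
Gm36502: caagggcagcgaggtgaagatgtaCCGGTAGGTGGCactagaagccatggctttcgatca

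The next 2 are the promoters chosen in the same way whose STAG-negative site held a peak in none of the 18 lists. They are Apol7a (chr15:77399227-77399286, minus strand) and Gm32776 (chr12:106146829-106146888, plus strand).
Apol7a: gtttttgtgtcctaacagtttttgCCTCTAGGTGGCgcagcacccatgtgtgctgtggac
Gm32776: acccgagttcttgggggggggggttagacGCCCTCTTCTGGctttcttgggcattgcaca

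At Myo1h the mean CTCF summit lay outside the printed bases. The core is on the printed strand in every one of these promoters except Yjefn3 and Gm32776, where the reverse complement matched. The CTCF peak at Apol7a, which encodes an apolipoprotein L family member, had fold enrichments of 26.2 in Stag1Stag2dKO, 26.9 in Stag1Stag3dKO, 27.8 in Stag2Stag3dKO and 29.5 in Stag3KO. The CTCF peak at Calhm5, a calcium homeostasis modulator family gene, had 9.53, 11.5, 9.57 and 14.0 in the same order. Another pair gave the reverse order: Gm32776, with no STAG peak in the 18 lists, had CTCF folds of 13.4, 17.6, 21.3 and 20.01. Gm30284, with peaks in all 18, had 21.4, 22.8, 23.9 and 23.9. In every mutant Apol7a lay above each printed promoter with peaks in all 18 lists. Gm32776 lay below Gm30284 but above Calhm5 and Gm36502 in every mutant. Against Yjefn3 and Myo1h its order changed with the mutant. So the CTCF folds of the printed promoters did not sort them by their STAG peaks. These fold enrichments over background are the authors' values for each peak and rank peaks within 1 list only.

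The STAG-negative sites were narrower and lower in their CTCF lists. Their median width was 389 bp (interquartile range 338 to 475, full range 203 to 4102), against 501 bp (430 to 601) for STAG-positive sites. Ranked by fold enrichment within each CTCF list, the negative sites had a median mean percentile of 36.0, against 71.9 for the positive sites. The gap was present in each mutant: the median fold of negative against positive sites was 11.4 against 25.9 in Stag1Stag2dKO, 11.4 against 27.5 in Stag1Stag3dKO, 12.4 against 29.4 in Stag2Stag3dKO and 13.6 against 29.6 in Stag3KO. Each CTCF list was called on pooled libraries, so these values have no replicate error, and none of them was tested, since GSC peaks chose the sites.

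The share of shared CTCF sites that were STAG-negative was 76.9% in the lowest decile of CTCF percentile, 77.4% in decile 2, 49.5% in decile 5, 15.5% in decile 8 and 0.928% in decile 10. The STAG-negative set therefore covered nearly the whole range of CTCF rank, with only 34 sites in the top decile.

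**Figure D1:**
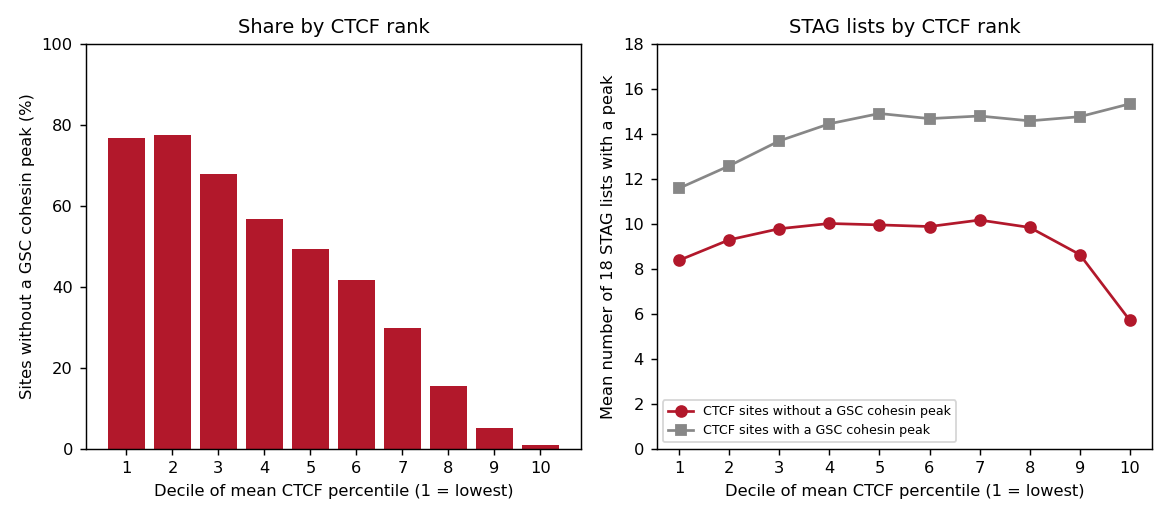
Left, percentage of shared CTCF sites with no GSC STAG peak in each decile of mean CTCF percentile (1 is the lowest). Right, mean number of the 18 STAG1 and STAG2 lists of ESC, EpiLC and PGCLC with a peak at STAG-negative sites (circles) and STAG-positive sites (squares): the share falls to 0.928% in decile 10, and negative sites lie below positive sites in every decile.

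Near the edge of the rule, 109 STAG-negative sites had a GSC STAG peak within 100 bp and 1145 (7.42%) within 1000 bp. The median distance to the nearest GSC STAG peak was 11.7 kb (quartiles 4.40 and 31.3 kb), and 1144 sites lay more than 100 kb away. On the other side of the edge, 3340 positive sites were positive through 1 list alone. Their status rested on STAG2 replicate 1 in 1177 cases, STAG3 replicate 3 in 739, STAG3 replicate 2 in 605, STAG2 replicate 3 in 598 and STAG2 replicate 2 in 130. The remaining lists, STAG1 replicate 2, STAG3 replicate 1 and STAG1 replicate 1, decided 58, 17 and 16 sites. The lists that decided the most sites, from STAG2 replicate 1 to STAG2 replicate 3, were the longest (25021 to 39681 peaks, the others 9641 to 13698). Among these longest lists the counts did not follow length. Sites that were positive in 1 list had a median CTCF percentile of 53.8 and a median width of 453 bp, between the negative sites and the sites positive in all 8 lists (88.2 and 525 bp).

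STAG-negative sites lay away from gene ends. Of the 15439 sites, 2101 (13.6%) lay within 2500 bp of either end of a protein-coding gene, against 4919 positive sites (23.2%) and 19.2% of all shared sites. A further 7194 negative sites (46.6%) lay inside a gene body away from its ends, against 32.6% of positive sites. Outside genes and their ends lay 39.8% of negative and 44.2% of positive sites. The RefSeq table gives no exons or strand, so exons, introns and start or end of transcription were not separated. The median distance to the nearest gene end was 17.96 kb for negative and 12.05 kb for positive sites. The lower share at gene ends was present in all 10 deciles of CTCF percentile, with 16.1% against 46.8% in decile 1 and 13.4% against 24.1% in decile 5.

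STAG-negative sites were also the more isolated. The nearest other shared CTCF site was a median of 14.95 kb away, against 11.12 kb for positive sites. That neighbour was itself STAG-negative for 46.7% of negative sites and 37.0% of positive sites. Negative sites formed 8344 uninterrupted runs along the chromosomes, of which 4685 were single sites. The 407 runs of at least 5 sites held 2564 of them (16.6%).

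**Figure D2:**
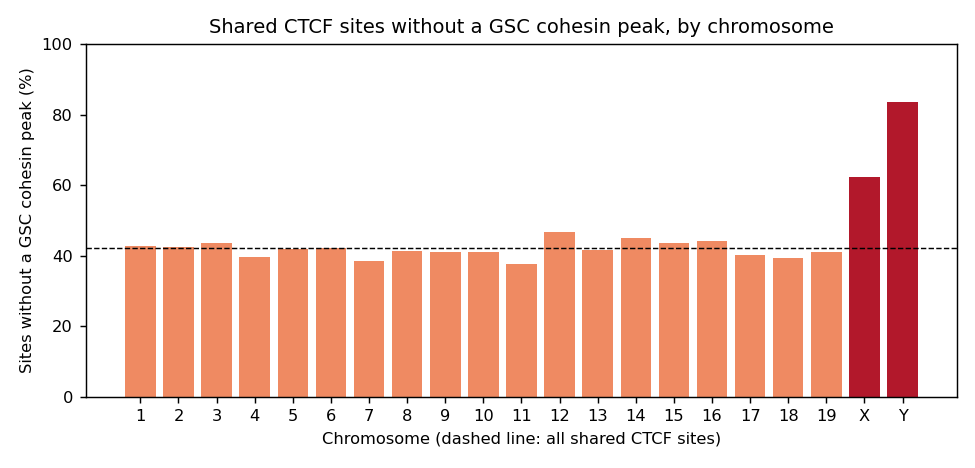
Percentage of shared CTCF sites on each chromosome that had no GSC STAG peak (bars), with the genome-wide value of 42.2% as a dashed line. Autosomes lie between 37.7% and 46.8%, and X (62.2%) and Y (83.6%) stand above them.

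Autosomes ranged narrowly, from 37.7% STAG-negative on chromosome 11 to 46.8% on chromosome 12. On X 600 of 965 shared sites (62.2%) were negative, and on Y 51 of 61 (83.6%). X thus held 3.89% of negative sites, against 1.72% of positive sites and 2.63% of all shared sites. The negative sites on X had a median CTCF percentile of 38.3, against 36.0 over all negative sites.

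At 1434 windows of 1 Mb with at least 10 shared CTCF sites, the median share of negative sites was 41.2%. All 11 shared sites at chr19:26000001-27000000, around the chromatin remodeller gene Smarca2, were negative, and so were all 10 at chrX:153000001-154000000. None of 10 was negative at chr4:89000001-90000000, the window that contains the cell cycle inhibitor genes Cdkn2a and Cdkn2b. At the Fap, Ifih1, Gca, Kcnh7 and Fign genes, chr2:62549718-64098939, 15 negative sites followed one another without a positive one, and their median site held STAG peaks in 12 of the 18 lists.

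Most STAG-negative sites held cohesin peaks in other cell types. In 13296 of them (86.1%) at least 1 of the 18 lists had a STAG1 or STAG2 peak, against 92.1% of all shared sites. In 1595 (10.3%) all 18 lists had one, against 9176 positive sites (43.3%) and 29.4% of all. In 2143 (13.9%) no list had one, against 768 positive sites (3.63%) and 7.95% of all. The median negative site had a peak in 10 lists and the median positive site in 17.

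**Figure D3:**
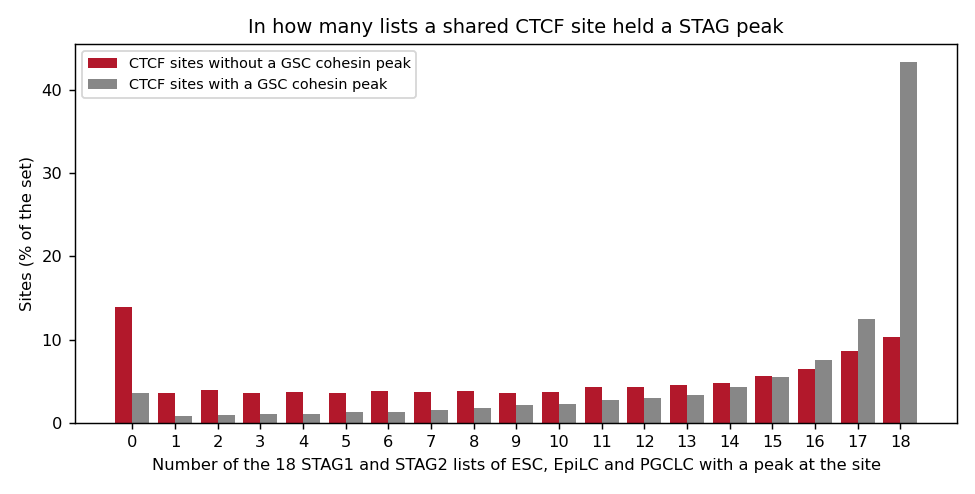
Percentage of STAG-negative (left bars) and STAG-positive (right bars) CTCF sites by the number of the 18 STAG1 and STAG2 lists with a peak at the site. Negative sites are spread over the axis with 13.9% at 0 and 10.3% at 18, while 43.3% of positive sites stand at 18.

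STAG2 peaks in ESC covered 72.2% and 71.0% of the STAG-negative sites, against 90.8% and 90.6% of the positive sites. In EpiLC, STAG2 covered 79.3% and 78.9% of negative sites, against 94.1% and 93.7% of positive sites. In d2PGCLC, STAG2 covered 61.9%, 44.0% and 57.1% of negative sites, against 87.0%, 76.0% and 84.6% of positive sites. STAG2 coverage of negative sites was thus highest in EpiLC, where both lists were above every other STAG2 list. In d4c7PGCLC, STAG2 covered 57.8%, 41.7% and 42.7% of negative sites, against 87.7%, 77.2% and 78.9% of positive sites.

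STAG1 peaks in ESC covered 61.2% and 44.5% of the negative sites, against 86.6% and 77.6% of the positive sites. In EpiLC, STAG1 covered 15.9% and 35.5% of negative sites, against 51.4% and 68.5% of positive sites. The 2 EpiLC lists were 19.6 percentage points apart at the negative sites, so STAG1 levels in EpiLC are known only roughly. In d2PGCLC, STAG1 covered 27.7% and 35.9% of negative sites, against 62.3% and 69.5% of positive sites. In d4c7PGCLC, STAG1 covered 58.5% and 64.5% of negative sites, against 88.4% and 90.1% of positive sites. By mean, STAG1 coverage of negative sites was thus highest in d4c7PGCLC and STAG2 coverage in EpiLC.

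The STAG-negative sites had the lower coverage in 18 of 18 lists. The difference, negative minus positive, averaged -28.0 percentage points and ranged from -36.1 to -14.7 (exact two-sided sign-flip permutation test over lists, p = 7.63e-06, the smallest that 262144 sign changes can give). The lists share their sites and p-values here measure only the spread between lists, which may be technical. Over the 8 means of protein and cell type the difference was -27.6 points (exact p = 0.00781). With positive sites weighted to the CTCF deciles of the negative ones, the difference was -22.6 points and remained negative in 18 lists, from -30.6 to -11.2.

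**Figure D4:**
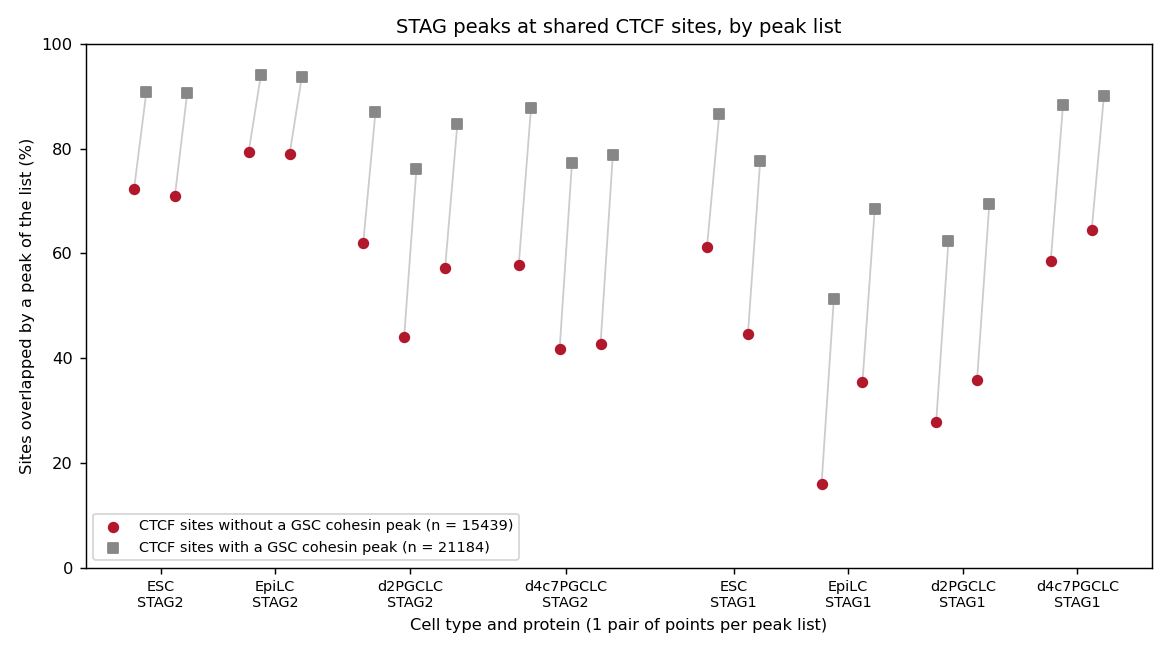
Percentage of STAG-negative sites (circles, n = 15439) and STAG-positive sites (squares, n = 21184) overlapped by a peak in each of 18 lists, with the 10 STAG2 lists at the left and the 8 STAG1 lists at the right. In every list the circle lies below its square, with differences from -36.1 to -14.7 percentage points.

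Where a peak was called, it also ranked lower at STAG-negative sites. The median percentile of fold enrichment within the list was 32.9 to 65.8 at negative sites and 56.5 to 83.4 at positive sites. The mean difference was -22.2 percentile points, and it was negative in 18 of 18 lists (exact two-sided sign-flip permutation test, p = 7.63e-06). With positive sites weighted to the CTCF deciles of the negative sites with a peak, it was -18.9 points and negative in 18 lists, from -23.0 to -14.7. In the first ESC STAG2 list the median fold was 12.5 at negative and 29.9 at positive sites. In the first ESC STAG1 list it was 7.99 at negative and 14.2 at positive sites.

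Coverage in the other cell types rose with the number of GSC lists that had a peak at the site. STAG2 lists covered on average 60.7% of sites with 0 GSC lists, 76.3% with 1, 86.1% with 4 and 97.1% with 8. STAG1 lists covered 43.0%, 61.3%, 68.2% and 92.0% at the same numbers. The values did not rise at every step: from 1 to 3 GSC lists STAG2 stood at 76.3%, 74.3% and 75.6% and STAG1 at 61.3%, 59.3% and 60.8%. Sites with 0 GSC lists minus sites with 1 gave -15.6 points for STAG2 and -18.3 points for STAG1, and no other single step was as large. The median CTCF percentile rose too, from 36.0 with 0 GSC lists to 53.8 with 1, 67.5 with 4 and 88.2 with 8. Its largest step was also from 0 to 1, and CTCF rank was not held fixed in this comparison.

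**Figure D5:**
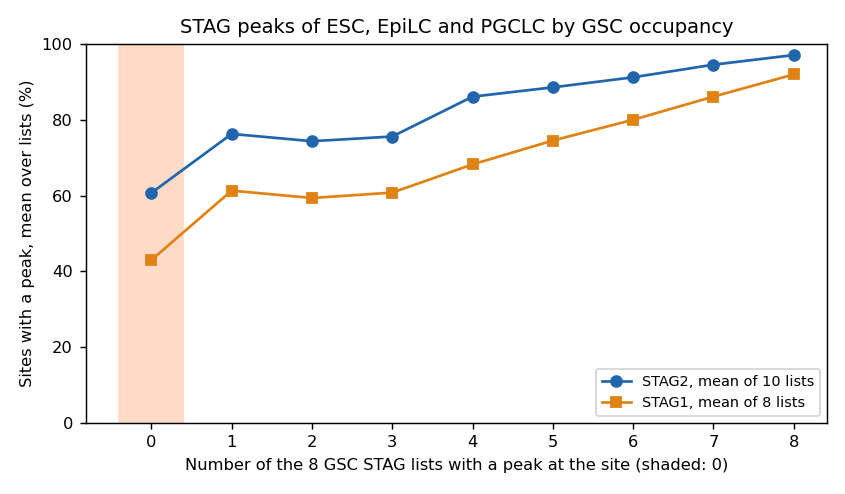
Mean percentage of shared CTCF sites with a peak over the 10 STAG2 lists (circles) and the 8 STAG1 lists (squares) of ESC, EpiLC and PGCLC, by the number of the 8 GSC STAG lists with a peak at the site. The shaded position at 0 holds the STAG-negative sites, with 60.7% for STAG2 and 43.0% for STAG1.

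Across cell types, STAG2 covered 71.6% ± 0.85 of STAG-negative sites in ESC (SD, n = 2), 79.1% ± 0.31 in EpiLC (n = 2), 54.3% ± 9.29 in d2PGCLC (n = 3) and 47.4% ± 8.99 in d4c7PGCLC (n = 3). The STAG2 means spanned 31.7 percentage points, which was larger than the spread between replicate lists (exact permutation test over lists, p = 0.0159). The order by mean was EpiLC, ESC, d2PGCLC and d4c7PGCLC, and the ranges of the 2 PGCLC stages overlapped. STAG1 covered 52.9% ± 11.8 of them in ESC and 25.7% ± 13.8 in EpiLC. In the PGCLC it covered 31.8% ± 5.79 at the d2 stage and 61.5% ± 4.22 at the d4c7 stage (SD, n = 2 each). The STAG1 means spanned 35.8 points and this did not pass the test (exact permutation test over lists, p = 0.0762). In the order d4c7PGCLC, ESC, d2PGCLC and EpiLC, the neighbours d4c7PGCLC and ESC overlapped, as did d2PGCLC and EpiLC.

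Averaged over cell types, STAG2 covered 20.2 percentage points more of the STAG-negative sites than STAG1 (exact permutation test with protein permuted within cell type, p = 0.0344). The sign was not the same everywhere. STAG2 minus STAG1 was positive at the first stages, 18.8 points in ESC, 53.4 points in EpiLC and 22.5 points in d2PGCLC, but -14.1 points in d4c7PGCLC. Coverage and list length went together at the extremes: the longest of the 18, an EpiLC STAG2 list of 84904 peaks, covered 79.3% of negative sites, and the shortest, an EpiLC STAG1 list of 14720 peaks, covered 15.9%. In 1 pair of lists of nearly the same length coverage differed: d2PGCLC STAG2 replicate 2 with 42249 peaks covered 44.0%, and d4c7PGCLC STAG1 replicate 2 with 42013 peaks covered 64.5%. These 2 lists differ in both protein and cell type, and the pair was not tested. With each list cut to its 14720 peaks of highest fold, every list covered 14.3% to 16.4% of negative sites, and STAG2 minus STAG1 turned to -0.853 points (exact p = 0.000556). The spans over cell types shrank to 0.627 points for STAG2 (exact p = 0.0073) and 1.63 points for STAG1 (exact p = 0.0667). The STAG1 and STAG2 difference and the order of cell types therefore cannot be told apart from list length. The cut left all lists at nearly the same coverage of negative sites, so the p-values after it concern very small differences. Negative sites stayed under positive sites in each equal-length list, with differences from -39.2 to -32.4 points. Peaks at negative sites ranked lower in every list, so a cut by fold removes more of them. It is therefore no independent check of this gap.

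The contrast between negative and positive sites was also compared between the proteins. The log2 ratio of negative to positive coverage averaged 0.39 higher for STAG2 than for STAG1 (exact permutation within cell type, p = 0.0333). This ratio, STAG2 minus STAG1, was 0.31 for ESC, 1.07 for EpiLC, 0.45 for d2PGCLC and -0.25 for d4c7PGCLC. With lists of equal length it was -0.033 (exact p = 0.111).

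Counting a protein as present in a cell type where at least 2 lists had a peak, STAG2 was present at 10490 STAG-negative sites in ESC (67.9%, against 80.3% of all shared sites) and at 11768 in EpiLC (76.2%, against 85.8%). In the PGCLC it was present at 8596 sites at the d2 stage (55.7%, against 72%) and at 7169 at the d4c7 stage (46.4%, against 66.6%). STAG1 was present at 6630 sites in ESC (42.9%, against 62.6%) and at 2246 in EpiLC (14.5%, against 34.5%). In the PGCLC it was present at 3943 sites at the d2 stage (25.5%, against 45.9%) and at 8479 at the d4c7 stage (54.9%, against 73.3%). Every one of these 8 shares was under the share of all shared sites.

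At 6640 STAG-negative sites (43.0%, against 63.2% of all shared sites) STAG2 was present in all 4 cell types. The lack of a GSC peak at these sites was set by the rule. The GSC STAG2 lists, with 13698 to 25979 peaks, were also shorter than every other STAG2 list. STAG1 was present in all 4 at 1719 sites (11.1%, against 30.2%). STAG2 in at least 1 cell type with STAG1 in none was found at 3151 sites (20.4%, against 12.1%), and the reverse at 126 (0.816%, against 0.647%). STAG2 without STAG1 was thus more frequent among negative sites than among all shared sites, and STAG1 without STAG2 was rare in both. STAG1 lists held 14720 to 42013 peaks and STAG2 lists 35799 to 84904, so these patterns cannot be told apart from list length. Neither protein was present in any cell type at 3072 sites (19.9%, against 11.4%).

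Presence of a protein at 1 stage alone was concentrated at a few stages. STAG1 in d4c7PGCLC and at no other stage occurred at 2077 STAG-negative sites (13.5%, against 11.1% of all shared sites). STAG2 in EpiLC and at no other stage occurred at 1319 (8.54%, against 5.37%). STAG1 in ESC alone occurred at 546 (3.54%, against 2.14%) and STAG2 in ESC alone at 317 (2.05%, against 1.16%). These 2 leading patterns sit at the stages with the longest STAG1 and STAG2 lists. In d4c7PGCLC, STAG1 without STAG2 was found at 2005 sites (13.0%, against 10.2%), more than the 695 sites (4.50%, against 3.45%) with STAG2 without STAG1.

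On X, the negative sites held STAG1 peaks less often than those on autosomes. STAG1 covered 40.5% ± 15.8 of X sites and 53.5% ± 11.7 of autosomal sites in ESC, 12.8% ± 11.2 and 26.3% ± 14.0 in EpiLC, 22.8% ± 6.84 and 32.3% ± 5.76 in d2PGCLC, and 49.7% ± 2.59 and 62.2% ± 4.30 in d4c7PGCLC (SD, n = 2 each). STAG2 covered 72.7% ± 0.24 of X sites and 71.8% ± 0.88 of autosomal sites in ESC (n = 2), and 44.3% ± 8.85 and 47.7% ± 9.04 in d4c7PGCLC (n = 3). The X share was the lower in 8 of 8 STAG1 lists and in 7 of 10 STAG2 lists. X minus autosomes averaged -6.08 points at negative sites over the 18 lists of both proteins, and it averaged -4.602 points at positive sites. At positive sites the X share was also the lower in every STAG1 list. The STAG1 shares there ranged from 21.9% against 51.9% in EpiLC replicate 1 to 87.1% against 90.2% in d4c7PGCLC replicate 2. The lower STAG1 share on X was thus not particular to negative sites. These values were looked at after the chromosome shares were known and were not tested.

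At gene ends, STAG-negative sites held STAG peaks a little more often than away from them, in 16 of 18 lists. In ESC, STAG2 covered 74.8% ± 0.07 of negative sites at gene ends and 71.2% ± 0.99 of those away from them (SD, n = 2). In d2PGCLC, STAG2 covered 57.6% ± 9.58 at gene ends and 53.8% ± 9.25 away (SD, n = 3). Within the d2PGCLC STAG2 lists the shares were 65.5% against 61.4%, 46.9% against 43.5% and 60.4% against 56.6%. Within the ESC STAG2 lists they were 74.8% against 71.8% and 74.9% against 70.4%. The gap thus had the same sign in each of these lists. The 2 lists that went the other way were both EpiLC STAG1 lists, with 15.5% at gene ends against 16.0% away and 33.7% against 35.8%. The gap was not tested.

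The STAG-negative sites that had peaks in all 18 lists and ranked highest in CTCF were taken as examples of sites bare of cohesin peaks in GSC alone. The first was chr13:94559820-94560416, inside Ap3b1, a subunit gene of the AP-3 vesicle adaptor. Its CTCF fold was 33.7 in Stag1Stag2dKO, 34.9 in Stag1Stag3dKO, 35.3 in Stag2Stag3dKO and 34.7 in Stag3KO. Its STAG peaks ranked at a median percentile of 79.8 over the 18 lists, with a lowest of 52.4 and a highest of 91.2, and the nearest GSC STAG peak was 35.4 kb away. This site ranked in the upper part of every list outside GSC. A site in Hspbap1, chr16:35817282-35817769, had CTCF folds of 33.6, 32.9, 33.2 and 33.9 in the same order and STAG percentiles of 57.5, 83.2 and 97.1 (lowest, median and highest). A site in Thra, which encodes a thyroid hormone receptor, at chr11:98754638-98755097, had CTCF folds of 33.2, 32.7, 32.7 and 32.8, with STAG percentiles of 4.90, 61.1 and 80.6.

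The others of these 10 lay in Tsc2, a growth control gene (chr17:24628591-24629114), in Magi2 (chr5:19264615-19265046) and in Babam2 (chr5:31926477-31926962), and nearest to Mrps30, Rnpc3, Ss18 and Ifng. The Ifng gene, which encodes interferon gamma, was 146.6 kb from its site. Over the 10 sites the mean CTCF percentile was 84.2 to 90.0, and the median STAG percentile was 51.3 to 83.2. The 10 sites had no feature of position in common: 6 lay inside a gene, and 1, at Mrps30, within 2500 bp of a gene end.

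The STAG-negative sites without a peak in any of the 18 lists included the negative site of highest CTCF percentile, and the 10 highest of them reached 94.8 to 99.99. In the top CTCF decile 44.1% of the 34 negative sites had no STAG peak in the 18 lists, and 0 had peaks in all 18. In 6 of these 34, all without a STAG peak, the -log10 q of CTCF passed 5000 in at least 1 mutant. The share of negative sites with no STAG peak was 18.6% in decile 1, 11.1% in decile 5 and 16.8% in decile 9. The first was chr13:77438792-77439146, inside 2210408I21Rik, with CTCF folds of 48.9, 49.0, 48.9 and 49.0 in Stag1Stag2dKO, Stag1Stag3dKO, Stag2Stag3dKO and Stag3KO. The second, chr12:3109760-3110164, was 137.3 kb from Rab10, a small GTPase gene, with folds of 48.0, 48.1, 48.1 and 48.2. The third, chr9:24541909-24542282, was 14.8 kb from Dpy19l2, with folds of 46.7, 46.8, 45.9 and 45.7. The values of the 4 mutants were nearly equal at these sites. Their significance values were also extreme, with a -log10 q of 8262 at 2210408I21Rik and 224681 near Rab10 in Stag3KO, against 772.9 at Ap3b1. No blacklist of artefact-prone regions was used here, so whether such folds and percentiles measure CTCF binding was not tested. The fourth was inside Cdk5rap2, a centrosome gene, at chr4:70378005-70378372, with folds of 39.9, 40.8, 40.7 and 39.8 and a -log10 q of 656.2. The remaining 6 lay nearest to Epha6, to the X genes Slc6a14 and Gm14596, and to the Y genes Gm21425, Gm20907 and Gm21302.

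A -log10 q above 5000 occurred at 94 shared CTCF sites. Of these, 25 were STAG-negative and 24 of the 25 had no peak in the 18 lists. Without all 94 sites, the difference in coverage between negative and positive sites was -28.0 points, as with them. The densest stretch was chr9:3000197-3038314, the first stretch of shared CTCF sites on its chromosome, with 29 negative sites in 38.1 kb, no protein-coding gene and 0 peaks in all 26 STAG lists. A -log10 q above 5000 was reached at 4 of these 29, and the stretch was not checked against a blacklist either. The longest run of negative sites was on Y, with 35 sites spread over chrY:140468-88403761. After these came 18 sites at chr12:19424254-20143458 and 17 each at chr14:42561481-43239186 and chr12:22075810-22708486, all 5 runs with a median of 0 STAG lists per site. Without sites more than 100 kb from any peak of the 18 lists, 15171 negative sites remained, and the difference in coverage from positive sites kept its direction in the test.

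The negative sites without a peak in the 18 lists lay outside genes and their ends in 50.0% of cases, against 39.8% of all negative sites. Their nearest peak of the 18 lists was a median of 9.91 kb away (quartiles 3.47 and 30.1 kb). Their median width was 380 bp and their median CTCF percentile 32.4, against 389 bp and 36.0 for all negative sites. As a group they thus differed little in median CTCF rank from all negative sites, which include them, and the extreme ones were few.

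Of the widest STAG-negative sites, some held STAG peaks in nearly all lists and some in none. The widest, 4102 bp at chr12:59034956-59039057, was 4.03 kb from Trappc6b, with CTCF folds of 2.82, 2.35, 2.46 and 2.46 in Stag1Stag2dKO, Stag1Stag3dKO, Stag2Stag3dKO and Stag3KO. The next, 3083 bp at chr1:24611654-24614736, was 23.7 kb from Col19a1, with folds of 3.18, 3.05, 3.23 and 3.93. Neither held a peak in the 18 lists. By contrast, a site of 1102 bp in Ksr1, a scaffold gene of the Ras pathway, at chr11:79019159-79020260, held peaks in all 18, and one of 1166 bp in Clasrp, at chr7:19589250-19590415, in 17. The other 6 of the 10 lay nearest to Alkbh8, Gm2244, Ly6c2, Vmn1r2 and Slc23a4 and in the alpha protocadherin cluster.

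Of 21887 protein-coding genes, 10.7% had a STAG-negative site within 2500 bp of an end and 23.5% a STAG-positive one. Among gene lists, the clustered protocadherins stood highest: 32 of 57 genes had a negative site at an end. They were also rich in positive sites, which 29 of 57 had at an end (50.9%). These cell adhesion genes form an array in which CTCF and cohesin bind at promoters and enhancers. The genes counted shared 20 sites in all, since 21 of the gamma genes share an end and with it a single negative site. That site held STAG2 in 10 of 10 lists and STAG1 in 5 of 8. In the beta genes the sites differed from one another: the site at Pcdhb18 held STAG1 in 7 of 8 lists and STAG2 in 0 of 10, and those at Pcdhb4 and Pcdhb8 held neither. The site at Pcdha12 held peaks in all 18 lists, and the site at Pcdha8, with a CTCF percentile of 68.0, in none.

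Ribosomal protein genes had a negative site at an end in 21 of 81 cases, and 31 of 81 had a positive one. The site at Rpl22 held peaks in 17 of 18 lists and the site at Rpl41 in 16. Of the 2 sites at Rpl14, 1 held peaks in 15 lists and the other in 0. Olfactory receptor genes had a negative site in 16 of 1110 cases, and 13 of 1110 had a positive one.

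In the lists of germline and pluripotency genes the counts were small. Of all protein-coding genes, 10.7% had a negative site at an end and 23.5% a positive one. A negative site stood at an end of 4 of 21 spermatogonial genes (Eomes, Ret, Stra8 and Uchl1) and of 4 of 23 meiotic genes (Dmc1, Msh4, Rec114 and Stra8). A positive site stood at an end of 4 of 21 spermatogonial and 5 of 23 meiotic genes. Stra8, which licenses entry into meiosis, had 2 such sites. The one at chr6:34921966-34922355 held peaks in all 18 lists, and its CTCF folds were 9.85 in Stag1Stag2dKO, 14.7 in Stag1Stag3dKO, 18.1 in Stag2Stag3dKO and 19.7 in Stag3KO. The one at chr6:34936667-34937019 held peaks in 13. Ret, the receptor through which GDNF maintains spermatogonial stem cells, had a site with STAG2 in 10 of 10 lists and STAG1 in 6 of 8. The site at Dmc1, the meiotic recombinase gene, held peaks in 3 lists.

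Of the pluripotency lists, 1 of 16 naive genes, 1 of 10 core genes and 2 of 14 formative genes had a negative site at an end. The naive gene was Klf4, a transcription factor of the naive state, whose site at chr4:55530228-55530634 held peaks in all 18 lists. Its CTCF folds were 8.48, 8.33, 6.58 and 8.12 in Stag1Stag2dKO, Stag1Stag3dKO, Stag2Stag3dKO and Stag3KO. The core gene was Tdgf1, with peaks in 16 lists, and the formative genes were Pim2 and Sall2, with 11 each. No early PGC gene of 12 and no neural gene of 12 had one, and of the late germline genes Tdrd9 and Tex19.1 did (2 of 16). A positive site stood at an end of 3 of 12 early PGC, 3 of 12 neural and 3 of 16 late germline genes. For the naive, core and formative genes the positive counts were 2 of 16, 3 of 10 and 1 of 14.

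Hox genes had a negative site at an end in 2 of 39 cases and a positive one in 19 of 39. Both negative Hox genes are in the HoxD cluster: a site at Hoxd10 and Hoxd11 held STAG2 in 6 of 10 lists and STAG1 in 0 of 8, and a second at Hoxd10 held peaks in 4 lists. Of 21 imprinted genes, Gnas and Magel2 had a negative site, with peaks in 17 and 15 of the 18 lists, and 6 of the 21 had a positive one. Of 20 cohesin and CTCF genes, only Ctcfl, the germline paralogue of Ctcf, had one, with peaks in 5. Stag1, Stag2, Stag3, Rad21 and Ctcf had no negative site at an end, and Stag2 and Ctcf had a positive one. Lists of other cell types that cultures can hold gave 3 of 12 fibroblast genes (Col3a1, Lum and Vim), 1 of 10 Sertoli genes (Rhox5) and 1 of 10 mesendoderm genes (Eomes). A positive site stood at an end of 3 of 12, 3 of 10 and 5 of 10 genes of these lists. Over all protein-coding genes the shares were 10.7% for negative and 23.5% for positive sites. Peak lists hold no expression values, so the labelled cell types could not be checked against marker levels.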

How the data were processed

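The peak lists used here are the 26 STAG lists, deposited by the authors per library, and the 4 CTCF lists, called on pooled libraries per the peak names in the files. The submitters' processing notes name MACS2, Bowtie2 2.3.4.1, Trim Galore 0.4.1 and cutadapt 1.9.1. They also name deepTools 3.5.0, bedtools 2.29.2 and SAMtools 1.7, with the builds mm10 and GRCm38.p3. As deposited by the authors, each peak carries a fold enrichment, -log10 p and q values and a score. The score column was not used. The lowest -log10 q in any list was 2.004. Depth is unknown, so no counting intervals are given.

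From these positions, overlaps of at least 1 bp were counted in Python 3.11.15 with numpy 2.4.6 and pandas 2.3.3. Percentiles rank fold enrichment within a list. Genes are 21887 protein-coding RefSeq genes (GRCm38.p6). Tests are exact permutation tests over lists, checked on simulated data, with a threshold of 0.05. No p-value was adjusted over the 6 tests. The sites and gene lists were chosen with earlier results of these data known. Named sites are the 10 of highest CTCF percentile with peaks in all 18 lists, the 10 highest with none, the 10 widest, genes of the lists whose site at an end had peaks in all 18 lists, and the STAG, Rad21 and Ctcf genes. Promoter sequences and the other genes named from the lists were chosen after their values were seen, since no genome was at hand.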

Additional observations from a re-analysis of the deposited data

Results flagged for a closer look

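The contrast between STAG-negative and STAG-positive sites differed between the proteins. The log2 ratio of negative to positive coverage was 0.39 higher for STAG2 than for STAG1 on average over the 4 cell types (exact permutation test with protein permuted within cell type, p = 0.0333). The difference had the opposite sign in d4c7PGCLC (-0.25), and with lists of equal length it was -0.033 (exact p = 0.111). STAG2 lists held 35799 to 84904 peaks and STAG1 lists 14720 to 42013, and the part of list length in this difference was tested only by that alternative.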

How the results depend on the processing

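The lower STAG coverage and the lower peak rank at STAG-negative sites kept their direction and passed the test under every alternative run, from -34.9 to -22.6 percentage points and from -23.1 to -10.1 percentile points. The -34.9 points came from lists of equal length. That cut by fold removes more of the lower-ranked peaks at negative sites, so it is no independent check. The span of STAG2 coverage over cell types passed under each alternative and that of STAG1 under none (exact p from 0.0571 to 0.162), but with lists of equal length the spans shrank to 0.627 points for STAG2, against 31.7 with whole lists, and to 1.63 points for STAG1, against 35.8. The difference of STAG2 minus STAG1 was less stable. With lists of equal length it turned to -0.853 points (exact p = 0.000556) for coverage and to -0.033 (exact p = 0.111) for the log2 ratio. With positive sites weighted by CTCF decile the log2 ratio was 0.29 (exact p = 0.0669). Leaving out single lists gave 17.7 to 22.6 points (exact p from 0.0241 to 0.0532) and 0.30 to 0.49 on the log2 scale (exact p from 0.0241 to 0.0706). The threshold was missed in both without ESC STAG1 replicate 2, d2PGCLC STAG1 replicate 1, d4c7PGCLC STAG1 replicate 1 or d4c7PGCLC STAG2 replicate 1, and for the ratio also without either EpiLC STAG2 list. With the replicate block the values were 20.4 points and 0.40 (exact p = 0.0781 each). Same-numbered lists did not deviate together at single sites (correlations -0.025 to 0.022). Where a group had 2 lists their deviations mirrored each other, and a shift of a whole list does not enter the correlation. Whether the numbers pair the lists was therefore not decided. The count of negative sites ranged from 14296 to 16616, and within 1000 bp of gene ends lay 6.08% of negative and 15.4% of positive sites. Alternatives with autosomes only, within 100 kb of a peak of the 18 lists, without sites of -log10 q above 5000, and for peak rank the decile weighting (-18.9 points) and the 8 means (-22.4 points, exact p = 0.00781) were chosen after seeing the data. The decile weighting has no value for results on negative sites alone.

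Limits: absence of a peak depends on list length and unknown depth, the CTCF lists have no replicates, and the GSC lists held 9641 to 39681 peaks. Single pairs of groups were not tested.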

Other observations

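Among the 768 STAG-positive sites without a peak in the 18 lists of ESC, EpiLC and PGCLC, 638 overlapped GSC peaks of STAG3 and of neither STAG1 nor STAG2, and 272 of these did so in all 3 STAG3 lists. The 18 lists hold STAG1 and STAG2 peaks only, so whether STAG3 was at these sites before the GSC stage is unknown here. The share of STAG3-only sites among all STAG-positive sites was not counted, so these counts have no background. The STAG3 peak names point to another working directory than those of STAG1 and STAG2, so a separate calling run and STAG3 cannot be told apart here.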
